A study of Mus musculus with 6 samples.

Results

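The endoplasmic reticulum (ER) genes for protein folding, the unfolded protein response and ER-associated degradation (ERAD) were examined in mouse muscle that lacked the proteasome subunit Rpt3. The genes form a list of 43, chosen by name for their roles and matched to array probes by gene symbol. A probe was named for 40 of them, and 39 had a probe that stood above background in 3 or more of the 6 arrays. No probe is named here for Pdia3, Sec62 or Atf6, and the Hyou1 probe was above background on 0 of 6 arrays. The other 39 genes stand among 14731 tested genes. In each of them a probe was above background on all 3 Rpt3-/- arrays and on at least 2 of the 3 Rpt3+/+ arrays, so that none entered through the Rpt3-/- arrays alone.

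Proteins destined for membranes or secretion enter the ER through the Sec61 translocon and are folded there by chaperones, lectins and disulfide isomerases. When unfolded proteins accumulate, the sensors IRE1, PERK and ATF6 raise the transcription of folding and disposal genes, a program called the unfolded protein response. Proteins that fail to fold are drawn back into the cytosol by ERAD, ubiquitylated and degraded by the proteasome. In muscle fibers most of this compartment is specialised as the sarcoplasmic reticulum, which stores calcium for contraction.

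RNA was taken from female mice at 6 weeks of age, 3 Rpt3-/- and 3 Rpt3+/+, and each mouse was measured on its own CodeLink mouse whole-genome array. Rpt3-/- mice carried floxed Rpt3 alleles (gene symbol Psmc4) and Mlc1f-Cre, a Cre recombinase under the promoter of fast myosin light chain 1. According to the paper this promoter is confined to fast-twitch fibers in adults, and excision by this Cre is incomplete. The paper holds that slow-twitch fibers may have kept Rpt3. It also found much less Rpt3 protein in the soleus, a muscle rich in slow-twitch fibers. Other cell types in the sampled muscle keep Rpt3 by design. The controls carried the same Cre with wild-type Rpt3 according to the paper, while the labels give both groups the same strain. The labels name the tibialis anterior as the tissue and the paper the gastrocnemius. According to the paper most fibers of the gastrocnemius and nearly all of the tibialis anterior are fast-twitch.

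Values are log2 intensities after background correction and quantile normalisation, fold changes are Rpt3-/- minus Rpt3+/+ on that scale, and adjusted p-values come from limma with the Benjamini-Hochberg correction across all tested genes. The targeted gene was checked first. The brighter Psmc4 probe read 10.01, 9.78 and 9.85 in log2 intensity for the Rpt3-/- mice and 11.16, 10.91 and 11.06 for the Rpt3+/+ mice, with no overlap. The log2 fold change was -1.17 ± 0.13 (SE, n = 3 per group, adjusted p = 0.00031 from limma). A dimmer Psmc4 probe was at -0.23 (adjusted p over all probes = 0.379 from limma), and where either probe lies relative to the floxed part is not stated in the sources at hand. Between 57.0% and 74.5% of probes were above background on an array. Log2 intensities of arrays of the same group correlated at 0.944 to 0.983 and those of different groups at 0.901 to 0.946. In bulk muscle RNA fewer cells of a type and less RNA per cell cannot be told apart.

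The control arrays differed among themselves in these genes. The first Rpt3+/+ array was the lowest of the 3 controls for 31 of the 39 ER genes, or 79.5%, against 44.7% of all tested genes. The median ER gene was 0.40 lower there on the log2 scale than on the other controls, while the median of all tested genes was 0.03 lower. The same array had the highest median background-subtracted intensity of the 6 before normalisation, at 114.5 units, and the second Rpt3+/+ array the lowest, at 52.7 units. Among the Rpt3-/- arrays the first was the lowest for 26 of 39 ER genes (66.7%, against 35.2% of all tested genes), by a median of 0.15. The part of array brightness in these differences was not tested. Values without the first Rpt3+/+ array are given beside the ER genes whose call or sign they change, and for most other ER genes further on.

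**Figure D1:**
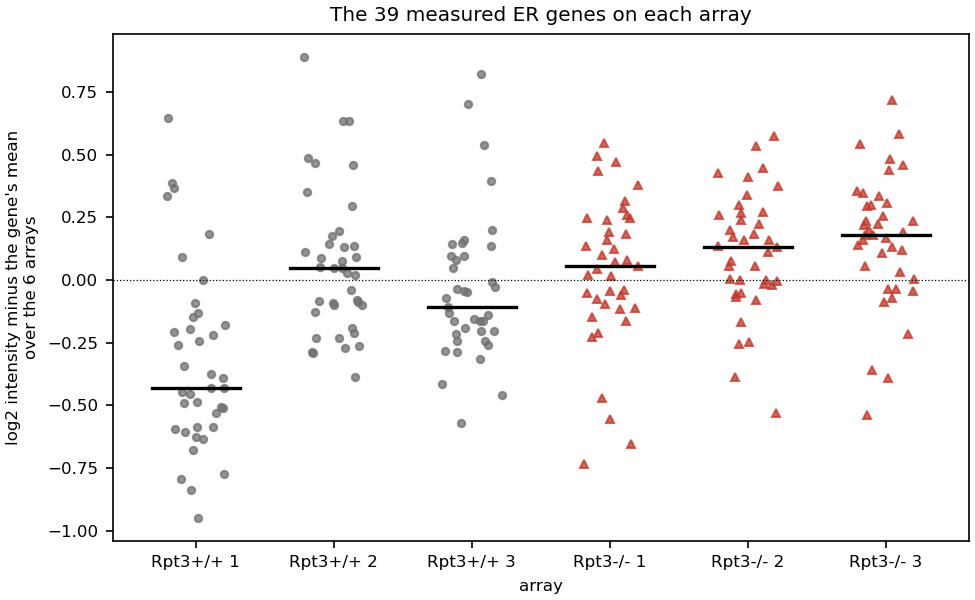
Each point is one of the 39 measured ER genes on one array, drawn as its log2 intensity minus the mean of that gene over the 6 arrays (y axis), for the 3 Rpt3+/+ arrays (grey circles) and the 3 Rpt3-/- arrays (red triangles). Bars are medians, which stood at -0.43, 0.05 and -0.11 in Rpt3+/+ and at 0.05, 0.13 and 0.18 in Rpt3-/-, with the first Rpt3+/+ array lowest.

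Of the 39 measured ER genes, 10 rose in Rpt3-/- mice (25.6%) and 2 fell (5.1%) by limma, with 0.05 as the limit of the adjusted p. Over all tested genes the corresponding shares were 12.7% higher and 6.56% lower. The genes that rose were Uggt1, Ppib, Sec63, Derl2, Sel1l, Xbp1, P4hb, Dnajc3, Pdia4 and Creld2, and those that fell were Ssr3 and Ern1. The log2 fold change was positive for 28 of the 39 genes, with a median of 0.25 against -0.01 over all tested genes, and ranged from -1.08 to 1.19. Rpt3-/- and Rpt3+/+ arrays did not overlap for 15 genes that were higher and 2 that were lower, while over all tested genes the groups did not overlap for 21.2% in the higher and 15.6% in the lower direction. Before adjustment, 14 of the ER genes were higher (35.9%) and 4 lower (10.3%) with a p under 0.05 by limma, against 19.2% and 12.9% of all tested genes.

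The number of ER genes called depended on single arrays. It fell from 10 higher to 6 without the first Rpt3-/- array, to 4 without the second, to 3 without the third and to 3 without the third Rpt3+/+ array. Without the first Rpt3+/+ array 7 were higher and 4 lower, with a median of 0.19, and without the third only 1 was lower. Over all tested genes the number higher ran from 1081 without the third Rpt3+/+ array to 2332 without the second. The direction of the 12 called genes was the same under all 19 alternatives tried, and the call of Uggt1 alone held under each of them. On leaving out the first Rpt3+/+ array Uggt1 was at 1.02, Ppib at 0.68, Derl2 at 0.66 and Sec63 at 0.59. P4hb and Xbp1 were then at 0.48, Dnajc3 at 0.47 and Ern1 at -0.76. All of these genes were still called, each with a smaller change than with all arrays.

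**Figure D2:**
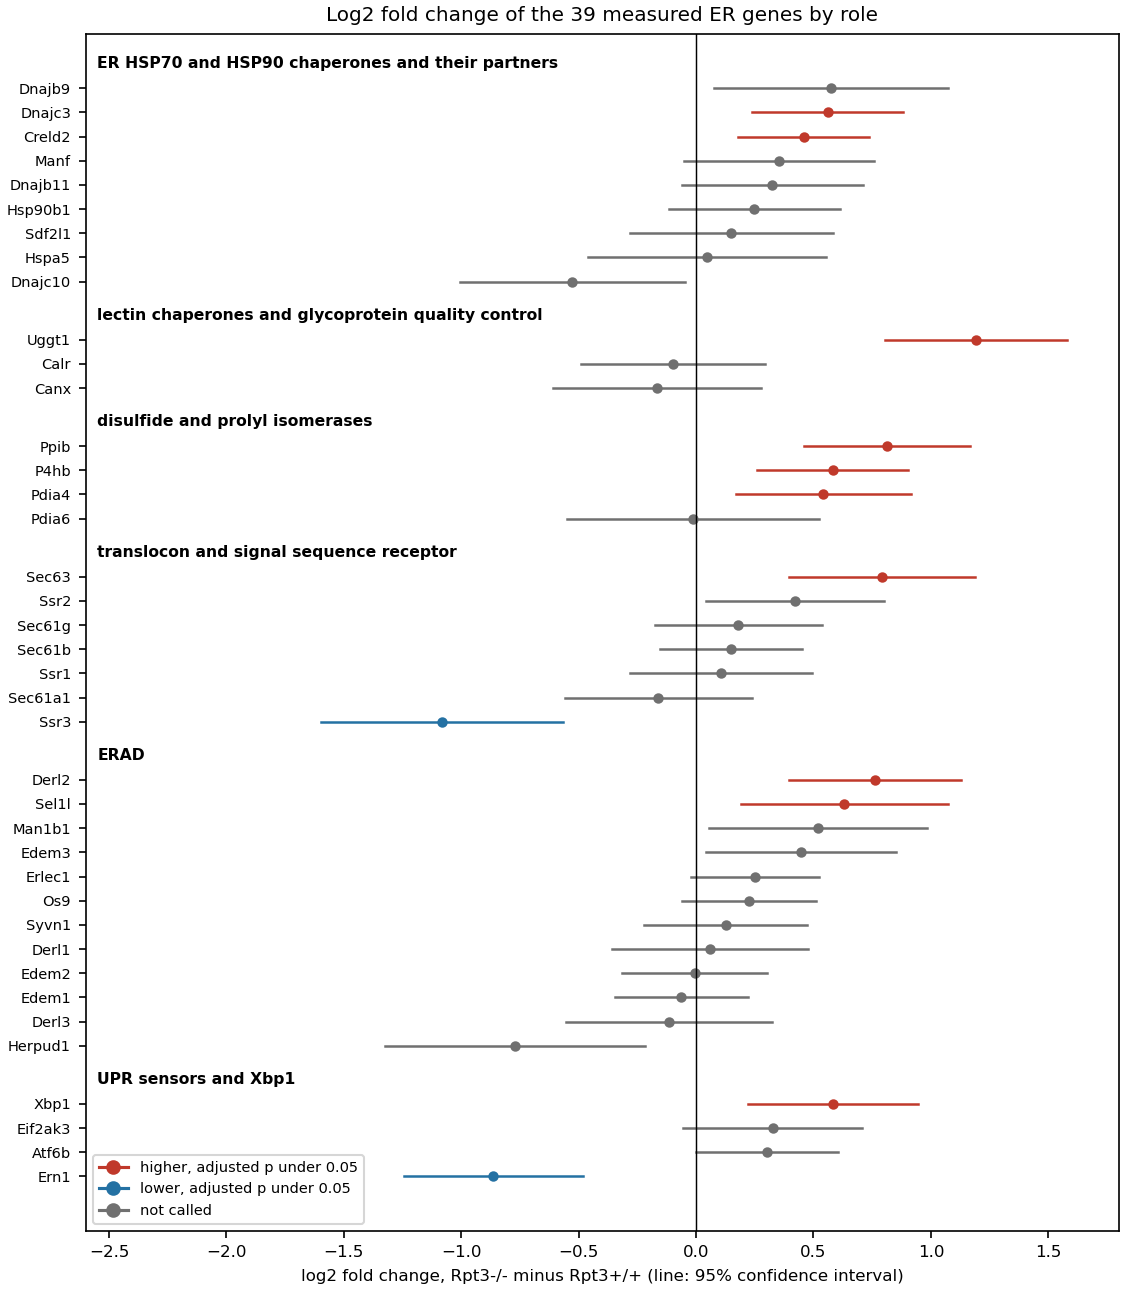
Points are log2 fold changes (x axis, Rpt3-/- minus Rpt3+/+, n = 3 arrays per group) and lines their 95% confidence intervals from limma for the 39 measured ER genes, grouped by role, in red where higher, blue where lower and grey where the adjusted p missed 0.05. Uggt1 lies farthest to the right at 1.19 and Ssr3 farthest to the left at -1.08, and the intervals of 27 grey genes reach 0.27 to 0.55 to each side.

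The master chaperone of the ER lumen did not pass the test. Hspa5 encodes BiP, the HSP70 that binds unfolded proteins and holds the stress sensors inactive. It read 10.42, 10.58 and 10.63 in Rpt3-/- mice and 9.89, 10.87 and 10.72 in Rpt3+/+ mice. The Rpt3-/- arrays lay within the range of the controls, of which the first was low. Its log2 fold change was 0.05 with a 95% interval from -0.46 to 0.55 (adjusted p = 0.914 from limma), and it turned to -0.25 without the first Rpt3+/+ array. Hsp90b1, the ER HSP90 known as GRP94, was at 0.25 (95% interval from -0.12 to 0.61), and at 0.11 without the first Rpt3+/+ array.

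Among the 9 measured HSP70 and HSP90 chaperones and their partners, 2 rose (22.2%, against 12.7% of all tested genes) and none fell. Dnajc3 encodes P58IPK, a J-domain co-chaperone of BiP that also inhibits PERK. It read 8.27, 8.33 and 8.57 in Rpt3-/- mice and 7.65, 8.01 and 7.82 in Rpt3+/+ mice, with no overlap. The difference was 0.56 ± 0.14 (SE, adjusted p = 0.0219 from limma), or 1.47-fold. Creld2, an ER-resident protein with disulfide isomerase activity that is induced by ER stress, read 9.50, 9.49 and 9.45 in Rpt3-/- mice against 8.91, 9.16 and 8.99. Its Rpt3-/- arrays lay close together and above every control array, and the difference was 0.46 ± 0.13 (SE, adjusted p = 0.0285 from limma). Creld2 was at 0.40 without the first Rpt3+/+ array, where its adjusted p was 0.0524.

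The partners that did not pass the test had values of both signs. The J-domain proteins Dnajb9 and Dnajb11 were at 0.57 and 0.33, the stress-induced secreted protein Manf at 0.35 and Sdf2l1 at 0.15. Without the first Rpt3+/+ array these values were 0.30, 0.14, 0.19 and 0.37. Dnajc10, the disulfide reductase ERdj5, was at -0.53 (95% interval from -1.005 to -0.05, adjusted p = 0.120 from limma). Without the first Rpt3+/+ array Dnajc10 stood at -0.78 and passed the test as lower (adjusted p = 0.0029).

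Uggt1 showed the largest change of the measured ER genes. It encodes the glucosyltransferase that recognises incompletely folded glycoproteins and returns them to the lectin chaperones for another round of folding. Log2 intensities were 10.55, 10.63 and 10.78 in Rpt3-/- mice and 9.11, 9.79 and 9.49 in Rpt3+/+ mice. Even the highest control lay well under the lowest Rpt3-/- array. This amounted to 1.19 ± 0.17 (SE, adjusted p = 0.0013 from limma) on the log2 scale, or 2.28-fold, and a dimmer Uggt1 probe gave 1.06 (adjusted p over all probes = 0.0102). The lectins to which Uggt1 returns its clients, Calr (calreticulin) and Canx (calnexin), were at -0.10 and -0.16, with intervals that reached from -0.49 to 0.29 and from -0.61 to 0.28. The sign of Calr was positive under median and 75th percentile centring and, at 0.045, without the first Rpt3+/+ array, where Canx was at -0.39.

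Of the 4 measured disulfide and prolyl isomerases, 3 rose (75%, against 12.7% of all tested genes). Ppib encodes cyclophilin B, a prolyl isomerase of the ER that acts on procollagen among other clients. It was at 9.72, 9.64 and 9.88 in Rpt3-/- mice and 8.67, 9.21 and 8.93 in Rpt3+/+ mice, which gave 0.81 ± 0.16 (SE, adjusted p = 0.0060 from limma). P4hb, protein disulfide isomerase, which is also the beta subunit of collagen prolyl 4-hydroxylase, was at 10.76, 11.08 and 10.94 against 10.15, 10.44 and 10.45.

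For both genes every Rpt3-/- array was above every control. The log2 fold change of P4hb was 0.58 ± 0.14 (SE, adjusted p = 0.0183 from limma). Pdia4, the isomerase ERp72, read 8.31, 8.07 and 8.05 against 7.27, 7.83 and 7.71, a difference of 0.54 ± 0.17 (SE, adjusted p = 0.0466 from limma) without overlap. Pdia4 passed narrowly, and it was at 0.37 (adjusted p = 0.0834) when the first Rpt3+/+ array, its lowest value, was left out. The isomerase Pdia6 was at -0.01 with a 95% interval from -0.55 to 0.52, and at -0.31 without the first Rpt3+/+ array.

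Of the 7 measured translocon and signal sequence receptor genes, 1 rose and 1 fell (14.3% each), against 12.7% higher and 6.56% lower over all tested genes. Sec63, which recruits BiP to the translocon, read 8.95, 8.89 and 8.79 in Rpt3-/- mice and 7.69, 8.40 and 8.16 in Rpt3+/+ mice. The groups did not overlap and the log2 fold change was 0.79 ± 0.18 (SE, adjusted p = 0.0118 from limma). A dimmer Sec63 probe, also above background on all 6 arrays, was at -0.01 (adjusted p over all probes = 0.974), and the mean of both probes was at 0.39 and missed the threshold (adjusted p = 0.106).

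Ssr3, the gamma subunit of the signal sequence receptor that sits beside the translocon, fell. It read 8.45, 8.47 and 8.46 in Rpt3-/- mice against 8.91, 9.89 and 9.82 in Rpt3+/+ mice. The lowest control, the first, was still above all Rpt3-/- arrays. Ssr3 thus differed by -1.08 ± 0.23 (SE, adjusted p = 0.0090 from limma), or 2.12-fold lower, and -1.40 without that array. The other subunits on the list, Ssr1 and Ssr2, were at 0.11 and 0.42. The channel subunits Sec61a1, Sec61b and Sec61g were at -0.16, 0.15 and 0.18, and none of the 5 passed the test. Without the first Rpt3+/+ array Ssr1 and Ssr2 were at -0.08 and 0.31, and the 3 channel subunits at -0.31, 0.09 and 0.10.

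Within ERAD, 2 of 12 measured genes rose (16.7%, against 12.7% of all tested genes) and none fell. Derl2 encodes a derlin, a membrane protein of the channel through which ERAD clients leave the ER. Its log2 intensities were 8.21, 8.40 and 8.61 in Rpt3-/- mice against 7.44, 7.93 and 7.57, with no overlap, a difference of 0.76 ± 0.16 (SE, adjusted p = 0.0096 from limma). A dimmer Derl2 probe was at 0.38 (adjusted p over all probes = 0.138). The paralogs Derl1 and Derl3 were at 0.06 and -0.11, and at -0.14 and 0.050 without the first Rpt3+/+ array.

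Sel1l is the adaptor that holds the ERAD ubiquitin ligase together with its client receptors. It read 8.86, 8.94 and 9.15 in Rpt3-/- mice and 7.89, 8.69 and 8.46 in Rpt3+/+ mice, a difference of 0.63 ± 0.20 (SE, adjusted p = 0.0497 from limma). The groups were separate but the call was the weakest of the 12, and it held under 8 of the 19 alternatives. Its value was 0.40 (adjusted p = 0.0719) without the first Rpt3+/+ array. The second Sel1l probe gave 0.61 (adjusted p over all probes = 0.0561). Syvn1, the ligase itself (HRD1), was at 0.13 with a 95% interval from -0.22 to 0.47, and at 0.25 without the first Rpt3+/+ array.

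Herpud1 had lower values in Rpt3-/- mice but did not pass the test. It encodes HERP, a short-lived ER membrane protein that is induced by ER stress and gathers ERAD components. It read 7.63, 7.98 and 8.33 in Rpt3-/- mice against 8.18, 8.998 and 9.07 in Rpt3+/+ mice, so that the third Rpt3-/- array overlapped the first control. On the log2 scale the difference was -0.77 (95% interval from -1.32 to -0.22, adjusted p = 0.0550 from limma). Herpud1 passed the test as lower under 6 of 19 alternatives, among them leaving out the first Rpt3+/+ array, which gave -1.05 (adjusted p = 0.0010).

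The mannose-trimming and mannose-binding genes of ERAD, which mark misfolded glycoproteins for disposal, were at 0.52 for Man1b1, 0.45 for Edem3, 0.25 for Erlec1, 0.22 for Os9, -0.01 for Edem2 and -0.06 for Edem1. None passed the test. Without the first Rpt3+/+ array Man1b1 was at 0.33, Edem3 at 0.26, Edem2 at 0.04 and Edem1 at -0.14. The groups did not overlap for Edem3, Erlec1 and Os9, all with the higher values in Rpt3-/- mice. Over all tested genes the groups were separate in this direction for 21.2%.

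Of the 4 measured genes for sensors and Xbp1, 1 fell and 1 rose (25% each). Over all tested genes 6.56% were lower and 12.7% higher. Ern1 encodes IRE1 alpha, the kinase and endoribonuclease that splices the Xbp1 transcript, and it fell. It was at 7.45, 7.85 and 7.71 in Rpt3-/- mice and 8.75, 8.22 and 8.64 in Rpt3+/+ mice, with no overlap. The difference was -0.86 ± 0.17 (SE, adjusted p = 0.0063 from limma), or 1.82-fold lower. A dimmer Ern1 probe, above background on 5 of 6 arrays, was at 0.10 (adjusted p over all probes = 0.694), and the mean of both was at -0.38 (adjusted p = 0.0997).

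Xbp1, the transcription factor made after that splicing, rose. Its log2 intensities were 9.59, 10.08 and 9.84 in Rpt3-/- mice and 9.03, 9.31 and 9.40 in Rpt3+/+ mice. The groups did not overlap, and the difference was 0.58 ± 0.16 (SE, adjusted p = 0.0302 from limma). The array reports total Xbp1 intensity and does not give the spliced form.

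Eif2ak3, which encodes the kinase PERK, read 8.23, 7.97 and 8.24 against 7.49, 8.11 and 7.85. Its groups overlapped and the log2 fold change was 0.33 (95% interval from -0.06 to 0.71, adjusted p = 0.227 from limma), or 0.16 without the first Rpt3+/+ array. Atf6b, a relative of the sensor ATF6, read 7.16, 7.45 and 7.43 against 7.05, 6.93 and 7.15. Its groups did not overlap and differed by 0.30 on the log2 scale (95% interval from -0.0007 to 0.61, adjusted p = 0.157 from limma).

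**Figure D3:**
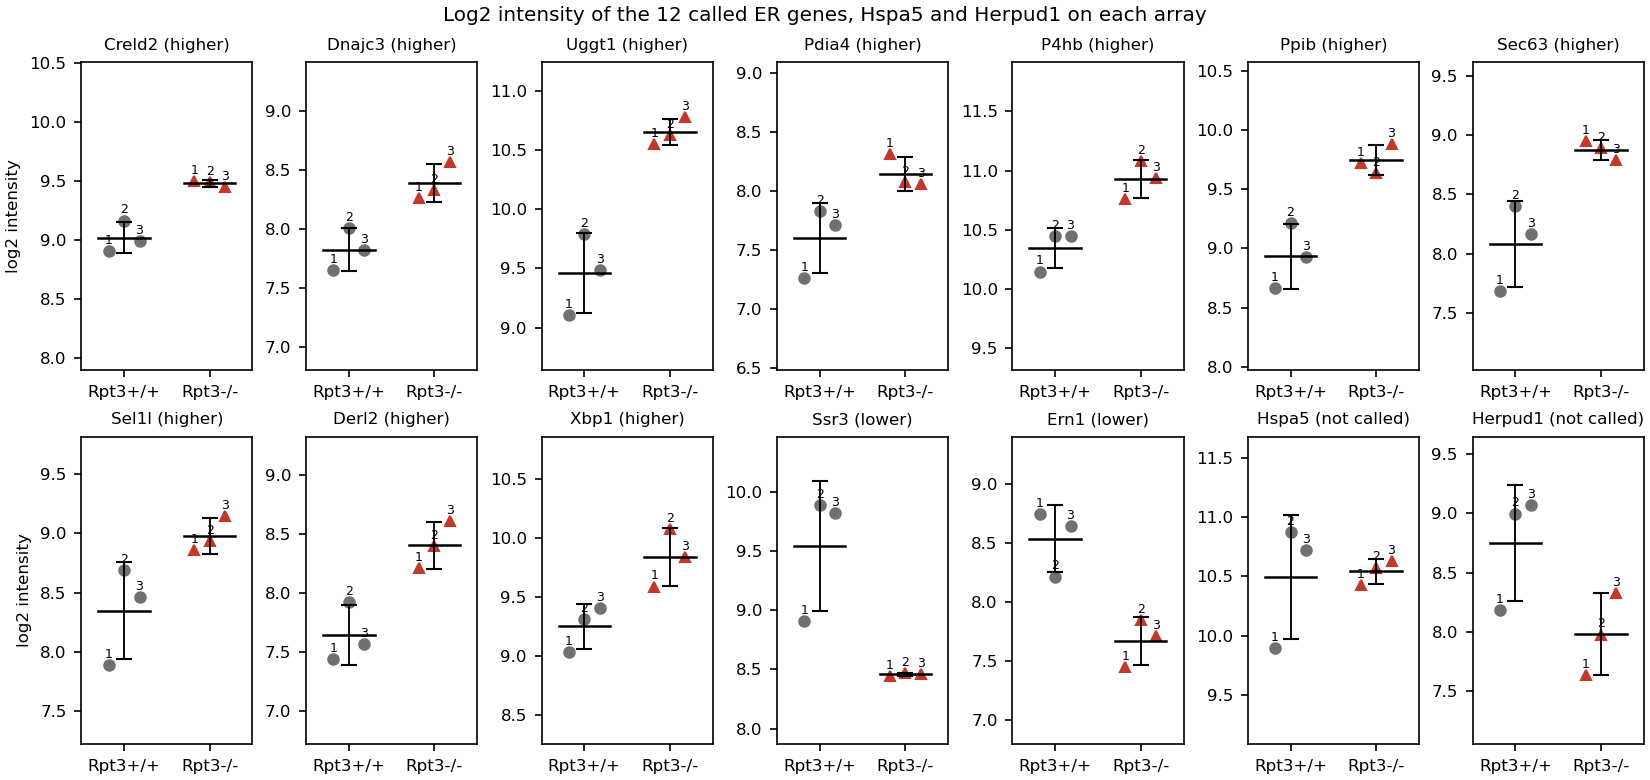
Log2 intensity (y axis) on each array for the 12 ER genes that passed the test and for Hspa5 and Herpud1, with Rpt3+/+ arrays as grey circles, Rpt3-/- arrays as red triangles and numbers giving the replicate. Horizontal bars are group means and error bars the SD (n = 3), each panel has its own y axis of equal span, and the groups overlap only for Hspa5 and Herpud1.

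The genes were next sorted by sequence near their starts. The ER stress response element, CCAAT followed after 9 bases by CCACG, is bound by NF-Y together with ATF6 or XBP1. It was searched on both strands of RefSeq promoter windows (build GRCm38.p6) that reach from 250 bases before to 50 bases after a gene start. Windows were at hand for 36 of the 43 genes. The element was found in 9 of the 36 (25.0%), against 37 of 27025 genes with a window (0.14%) and 0.16% of the tested genes with a window. The stretches of 5 genes are shown, those of both carriers that rose and of 3 carriers that did not pass the test. They read along the gene from 5′ to 3′, and capitals mark the element, which in Creld2 and Calr lies on the opposite strand and starts with CGTGG.
Dnajc3, chr14:118937807-118937865, plus strand: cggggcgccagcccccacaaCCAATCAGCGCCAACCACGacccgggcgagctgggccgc
Creld2, chr15:88819500-88819558, plus strand: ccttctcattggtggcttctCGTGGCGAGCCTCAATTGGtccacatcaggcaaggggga
Hspa5, chr2:34772005-34772063, plus strand: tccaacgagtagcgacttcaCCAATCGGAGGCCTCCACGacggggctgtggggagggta
Pdia6, chr12:17266471-17266529, plus strand: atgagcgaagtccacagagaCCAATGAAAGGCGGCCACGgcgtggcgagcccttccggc
Calr, chr8:84847055-84847113, minus strand: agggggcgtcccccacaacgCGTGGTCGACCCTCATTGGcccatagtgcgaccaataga

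Of the 9 ER genes with the element, Dnajc3 and Creld2 rose. Hspa5, Hsp90b1, Pdia6, Calr, Canx, Syvn1 and Derl3 did not pass the test, and the 9 genes had a median log2 fold change of 0.05, from -0.16 to 0.56. The 25 measured ER genes with a window that lacks the element had a median of 0.33, and 8 of them rose and 2 fell. Among other tested genes 10 had the element, with a median of -0.07. The 2 of these that rose, Tdrd9 and Spats2l, were above background on 1 control array each and so entered the test through the Rpt3-/- arrays. Neither Uggt1 nor Xbp1 had the element or a lone CCACG in its window. A match is a description of the letters, and its absence says only that these letters are not in this window.

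**Figure D4:**
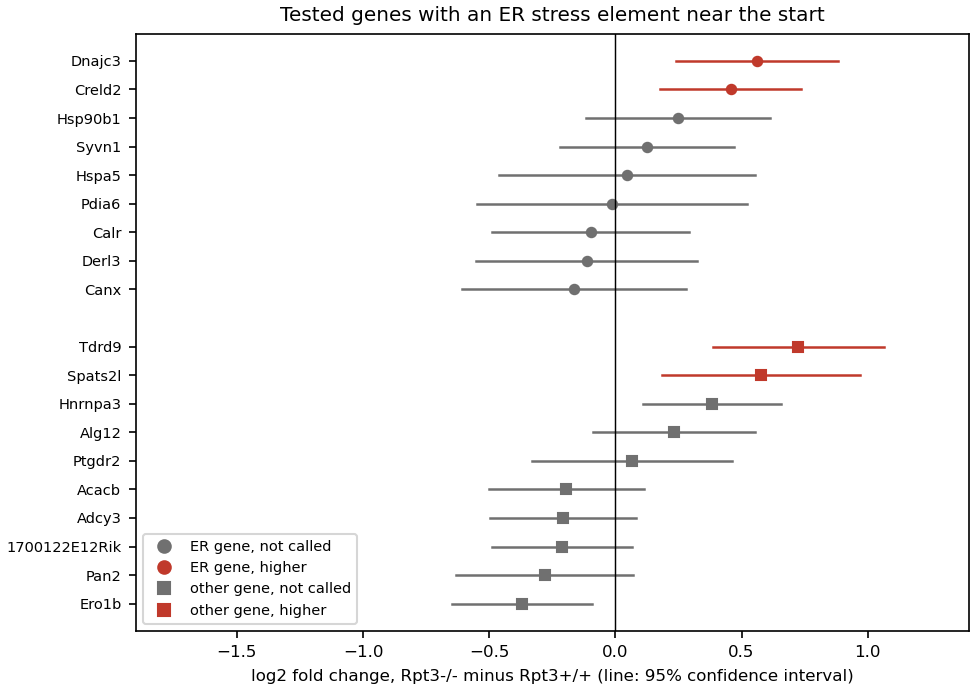
Log2 fold changes (x axis, Rpt3-/- minus Rpt3+/+) with 95% confidence intervals from limma (n = 3 arrays per group) for all tested genes whose promoter window holds the ER stress response element, with the 9 ER genes as circles above and the 10 other genes as squares below, red where higher. The intervals of 7 ER genes include 0, and those of Dnajc3 and Creld2 lie to its right.

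Other motifs were read in the same windows, on both strands. CCACG, which is also the end of every stress response element, was present in 26 of the 36 ER genes (72.22%), in 35.48% of all genes and in 46.4% of the tested genes with a window. The core TGACGTGG of the XBP1-bound unfolded protein response element and the amino acid response element TGATGCAAT of the PERK branch were in 0 of 36, against 0.71% and 0.22% of all genes and 1.02% and 0.16% of the tested genes. The antioxidant element core TGACNNNGC was in 7 of 36 (19.44%) against 13.99% of all and 15.85% of the tested genes. Of the 12 genes called, that core was present in the Ern1 window alone.

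Genes around this list were counted from lists written for their roles. Over all tested genes 12.7% were higher and 6.56% lower. Of 10 measured targets of the PERK branch, 3 rose and none fell. Ppp1r15a (GADD34), the phosphatase subunit that restores translation, was at 9.42, 9.06 and 9.23 in Rpt3-/- mice and 7.94, 7.78 and 7.64 in Rpt3+/+ mice, and so 1.45 higher on the log2 scale (adjusted p = 0.000152 from limma). Atf3 and Ddit3 (CHOP), transcription factors of the stress response, rose by 0.80 and 0.52 (adjusted p = 0.0022 and 0.0305), and for each the groups were separate. Ddit3 was at 0.44 (adjusted p = 0.0509) without the first Rpt3+/+ array. Atf4, which is controlled mainly through its translation, was at -0.02 (adjusted p = 0.937), and its sign turned under other scalings. Among 9 genes for ATF6 activation and related factors 1 rose, the ER membrane protein gene Wfs1 at 0.46, and 1 fell, the NF-Y subunit gene Nfyb at -0.58. This was 11.1% in each direction, and the list had a median of -0.10.

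The partners of ERAD in the ER membrane and cytosol rose in 8 of 20 cases (40%) and fell in none, at a median of 0.38. Fbxo2, an F-box protein that binds glycoproteins taken out of the ER, was at 9.37, 9.59 and 9.63 in Rpt3-/- mice and 7.97, 7.83 and 7.79 in Rpt3+/+ mice, a rise of 1.67 (adjusted p = 4.28e-05 from limma). Ubxn4 and Nploc4, which link or assist the extraction ATPase p97, rose by 1.32 and 1.17, and Selenos, which anchors p97 at the ER membrane, by 0.71. For all 4 the groups were separate.

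Entry and early processing were counted in 17 genes for the signal peptidase, the signal recognition particle and partners of the translocon. Of these 7 rose (41.2%) and 2 fell (11.8%). Sec11c, a catalytic subunit of the signal peptidase, rose by 1.69 (adjusted p = 3.24e-05 from limma), and the signal recognition particle genes Srp19 and Srp9 by 0.73 and 0.66. Sec61a2, a paralog of the channel gene Sec61a1, fell by 0.90 on its brighter probe, while its dimmer probe was at 0.44. Of 9 genes of the oligosaccharyltransferase, which attaches glycans to new proteins, only Dad1 rose, by 0.63, and none fell. The share higher was 11.1%, against 12.7% of all tested genes.

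Further folding enzymes included 18 ER oxidoreductases and prolyl isomerases, of which 4 rose (22.2%, against 12.7% of all tested genes) and none fell. These were the FK506-binding proteins Fkbp7, Fkbp11 and Fkbp2, at 0.90, 0.65 and 0.61, and the peroxiredoxin Prdx4 at 0.74. Of 8 collagen chaperones and hydroxylases 3 rose (37.5%), P3h1 by 0.97, Crtap by 0.95 and Plod3 by 0.48. The hydroxylase genes P4ha1, P4ha2, Plod1 and Plod2 were at -0.25, -0.42, 0.04 and 0.20 and did not pass the test. P3h1 and Crtap act in a complex with cyclophilin B, the product of Ppib. The collagen chaperone Serpinh1 (HSP47) was at 0.43 (adjusted p = 0.0849 from limma).

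Of 21 genes for transport between the ER and the Golgi, 5 rose (23.8%) and 2 fell (9.5%). Over all tested genes the shares were 12.7% and 6.56%. The transport genes that rose were led by the cargo receptor Surf4 at 0.87 and the coat gene Sec31a at 0.59. Those that fell were Sec24a at -0.70 and Sar1b at -0.68. The sarcoplasmic reticulum was the only list of the 9 in which more genes fell than rose. There 8 of 15 were lower (53.3%) and 4 higher (26.7%), at a median of -0.47. The junctophilin genes Jph2 and Jph1, which join the reticulum to the surface membrane, were at -1.20 and -1.14 (adjusted p = 0.0020 and 0.00029 from limma). Sln, the sarcolipin that inhibits the calcium pump, was at 14.03, 13.68 and 13.40 in Rpt3-/- mice and 7.74, 7.69 and 7.65 in Rpt3+/+ mice, a log2 fold change of 6.01. Casq2, the cardiac and slow-muscle calsequestrin, rose by 1.43. The other calsequestrin gene, Casq1, was brighter, with a Rpt3+/+ mean of 13.42 against 7.93 for Casq2. It was at -0.98 (adjusted p = 0.00073 from limma).

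These counts also moved with single arrays. The ERAD partners had 6 to 10 higher genes and the PERK branch targets 2 or 3 when 1 array was left out. The signal peptidase, signal recognition particle and translocon partners fell to 3 higher without the second or the third Rpt3-/- array, likewise without the third Rpt3+/+ array, and to 4 without the first Rpt3-/- array. The transport genes fell to 1 higher without the third array of either group and to 2 without the second Rpt3-/- array. The oxidoreductases fell to 2 higher on leaving out the first Rpt3-/- array or the third array of either group. For the oligosaccharyltransferase 3 genes were lower without the first Rpt3+/+ array, and Dad1 was not called on leaving out the first Rpt3-/- array, the second Rpt3-/- array or the third control. Of the sarcoplasmic reticulum genes 3 were lower without the second Rpt3-/- array and without the third Rpt3+/+ array, 4 without the first Rpt3-/- array and 5 without the third. Wfs1 and Nfyb were called without the first Rpt3+/+ array and with all arrays, but not when any other array was left out.

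**Figure D5:**
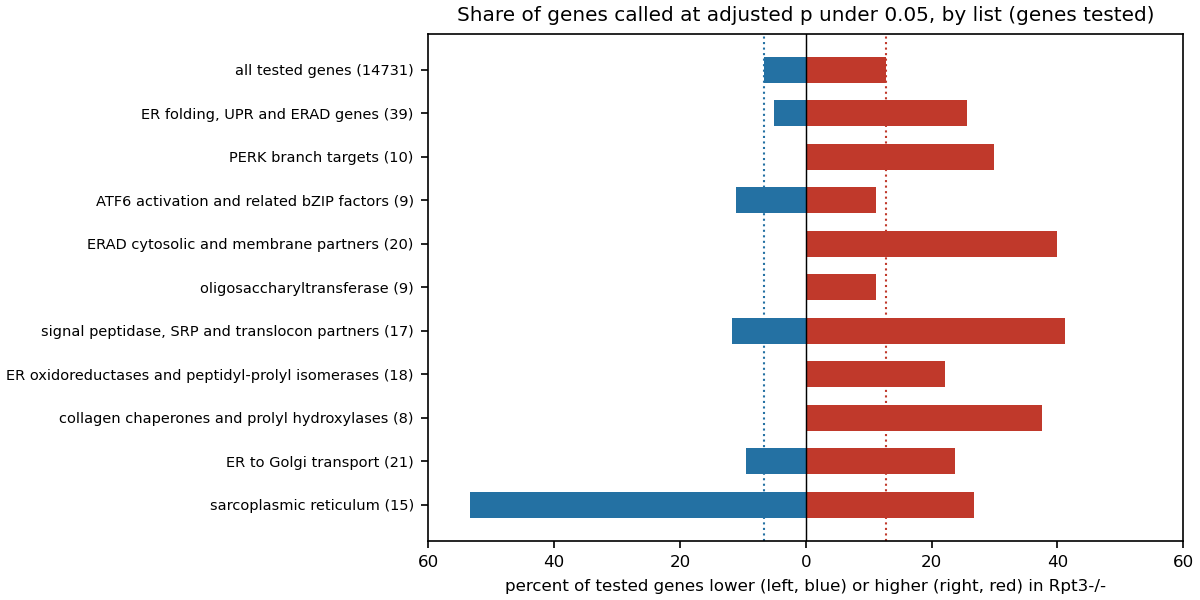
Bars give the percent of tested genes (x axis, from 0 in both directions) that were higher (red, right) or lower (blue, left) in Rpt3-/- mice with an adjusted p below 0.05 by limma, for all tested genes, the ER genes and 9 lists of related genes, with the number tested in brackets and dotted lines at the shares over all tested genes. The sarcoplasmic reticulum has the longest bar to the left, 53.3% of 15 genes, and the list of signal peptidase, signal recognition particle and translocon partners the longest to the right, 41.2% of 17 genes.

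Marker genes of cell types moved with the groups as well. Over all tested genes 12.7% were higher and 6.56% lower. Fast fiber genes, which define the labelled tissue, had a mean log2 intensity of 13.81 to 13.89 on Rpt3-/- arrays. On Rpt3+/+ arrays it was 13.95 to 13.97. The bright gene Acta1 had no usable value on the third Rpt3+/+ array, so that the mean there leaves it out. Of 12 fast fiber genes tested 1 was higher (8.3%) and 2 were lower (16.7%). A dimmer Myh4 probe was at -1.79 (adjusted p over all probes = 0.0003 from limma), against -0.26 for the brighter one used. Acta1, Atp2a1, Ckm and Tnnc2 each read 14.86 on some array, and how far such a shared top value narrows differences was not tested. Slow fiber genes were higher in 5 of 7 cases (10.89 to 10.99 against 9.93 to 10.40) and regenerating muscle genes in 6 of 9, with 1 lower (9.90 to 10.44 against 8.42 to 8.65). Of those 6, Chrng and Tnnt2 were above background on 1 control array each and so entered through the Rpt3-/- arrays. On the same list Pax7 was above background on 0 of 6 arrays, and Myod1 and Myf5 did not pass the test. Macrophage genes were higher in 9 of 13 cases, at a mean of 8.90 to 9.39 against 7.81 to 7.95, although the defining marker Adgre1 was above background on 1 array and Itgam on 2.

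Fibroblast genes were higher in 4 of 11 cases, or 36.4% (10.54 to 10.63 against 9.87 to 10.34), and in 2 without the third Rpt3+/+ array. The first Rpt3+/+ array, low in the ER genes, was the lowest control in the mean of the fast fiber, slow fiber, regenerating muscle, fibroblast and endothelial genes and the highest in that of the macrophage and the plasma and B cell genes. Genes of plasma and B cells, which are rich in ER, were higher in 0 of 7 cases by limma, and 0 were higher with an unadjusted p under 0.05, while Cd79a fell by 0.64 on the log2 scale. Their markers Jchain and Ms4a1 were above background on 0 of 6 arrays. None of 6 endothelial genes passed the test, although 2 were lower without the first Rpt3+/+ array. The part of these cells in the values of the ER genes was not tested.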

How the data were processed

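The authors deposited, per the file headers, CodeLink Expression Analysis 5.0.0.31312 scanner reports with the intensity, local background and quality flag of each spot, without normalization between arrays. They also deposited a value table on a linear intensity scale, whose columns share a median of 89.0. Each of its columns correlated best with its own array (at least 0.994). Of 34967 transcript probes, 21615 had 1 symbol in the platform annotation, 681 had several and were left unnamed, and 536 more were named through their accession. After background correction the 1260 control spots were dropped.

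Background was corrected by normexp (offset 50), arrays were quantile normalized and log2 intensities fitted with lmFit and eBayes (limma 3.58.1, R 4.3.3). The p-values are two-sided and adjusted by Benjamini-Hochberg over all 14731 genes with a probe above background on at least 3 arrays. The brightest such probe stood for a gene, and 9 ER genes had more than 1. The p-values measure the spread between 3 mice a group, whose number limits the precision. Python 3.11.15 read the files and the promoter windows. The steps were tested on simulated data.

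The ER genes and all lists were chosen with earlier results of these data known. Each ER gene that passed the test is named, with Hspa5, Xbp1, Ern1, Eif2ak3, Atf6, Atf6b and Herpud1 in any case, and up to 4 called genes of each other list with the largest change, with Ddit3, Atf4 and Serpinh1 in any case. Cd79a, Chrng, Tnnt2, Tdrd9 and Spats2l were named after their values were seen, and 1 other gene of the plasma and B cell list is not reported here. The alternatives tried were other background corrections, scalings, filters and probe rules, the value table, other variance models, the methods' t-test, a replicate block and the omission of each array in turn, the last applied to the other lists after seeing the data. The protein ends of the ER genes were not analysed here.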

Additional observations from a re-analysis of the deposited data

How the results depend on the processing

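The number of ER genes called higher, 10 under the main setting, was 5 with plain background subtraction, 16 with array quality weights, 2 by the methods' t-test after adjustment (10 at an unadjusted p under 0.05) and 3 to 15 when 1 array was left out. The number called lower, 2, was 1 with the mean of probes, 4 with array quality weights, 0 by the methods' t-test (2 at an unadjusted p under 0.05) and 1 to 4 when 1 array was left out. Over all genes, 1870 were higher and 967 lower, against 3008 and 2361 with array quality weights, 940 and 427 by the methods' t-test, 600 lower with median centring, and 1081 to 2332 higher and 387 to 1418 lower when 1 array was left out. Of all calls 65.9% were higher, against 81.0% with median centring. The median of the ER genes stayed between 0.19 and 0.28 when 1 array was left out and was 0.41 with median centring, where the median of all genes was 0.05. Same-numbered arrays of the groups deviated together at correlations of 0.126, -0.438 and 0.098, and differently numbered ones at -0.485 to 0.471. These correlations, from 3 arrays a group, cannot show whether the mice were paired. With the replicate block 8 ER genes were higher and 3 lower.

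Signs turned only in genes that had not passed the test. When 1 array was left out, the log2 fold change ran from -0.25 to 0.24 for Hspa5, -0.006 to 0.37 for Sdf2l1, -0.27 to 0.045 for Calr, -0.39 to 0.024 for Canx, -0.31 to 0.22 for Pdia6, -0.31 to 0.042 for Sec61a1, -0.082 to 0.22 for Ssr1, -0.12 to 0.067 for Edem2, -0.14 to 0.22 for Derl1, -0.29 to 0.050 for Derl3 and -0.078 to 0.050 for Atf4. Median centring gave Calr at 0.12, Pdia6 at 0.096, Edem1 at 0.014 and Atf4 at 0.31. The 75th percentile gave Calr at 0.039, Pdia6 at 0.011 and Atf4 at 0.23. Array quality weights gave Hspa5 at -0.13, Ssr1 at -0.001, Derl1 at -0.023 and Atf4 at 0.044. Background subtraction gave Edem2 at 0.002, cyclic loess Atf4 at 0.025 and the value table Atf4 at 0.31. Of 739 values of single ER genes under the alternatives, 637 kept direction and side of the threshold. The causes were not tested.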
